A study of Mus musculus with 8 samples.

Results

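The genes described here are 10 parts of the Wnt pathway: the receptors FZD1, FZD2 and FZD7, the co-receptor LRP6, the secreted inhibitors SFRP1, DKK3 and NOTUM, the feedback gene AXIN2, and the DNA-binding partners of β-catenin LEF1 and TCF7L2. They were picked by symbol from the 13937 genes of a count table made from cultured mouse astrocytes, and all 10 were present in it. Mouse spelling (Fzd1, Lrp6 and so on) is used below.

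Wnt proteins are secreted, lipid-modified signals that bind a Frizzled receptor together with an LRP co-receptor at the cell surface. In the canonical branch this stops a complex built on Axin and APC from marking β-catenin for destruction, so that β-catenin reaches the nucleus and acts with TCF/LEF proteins on target genes. Several targets, such as Axin2 and Notum, dampen the signal, and in the central nervous system the pathway is known for roles in patterning, in the growth of progenitors and in the blood-brain barrier.

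The RNA came from primary brain astrocytes of C57BL/6 pups aged 1 day, and was sequenced in bulk. Pups were wild type (WT) or knockouts (KO) for RGC-32, a cell cycle regulator encoded by Rgcc. Cultures were serum-starved and then left untreated (control) or stimulated for 24 h with TGF-β at 10 ng/ml, a cytokine that induces reactive changes in astrocytes. There were thus 4 groups, control and TGF-β in each genotype, with 2 libraries in each. The WT pups were littermates according to the study's methods, and the meninges were taken off before plating. The labels call the libraries biological replicates but do not say whether the 2 libraries of a group came from separate litters or days, so the p-values measure the spread between these libraries only. With bulk RNA, fewer cells of a type and less RNA per cell cannot be told apart.

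Each library held between 14920561 and 18956038 counts on genes. Rgcc itself, the targeted gene, was at 5.16 and 5.61 CPM in WT control, and at 11.9 and 23.1 with TGF-β. The KO libraries were at 3.89 and 1.66 in control and at 4.29 and 1.72 with TGF-β, where CPM gives counts scaled with TMM factors to a common library total. The level was lower in each KO library than in each WT library of the same treatment but was not at 0, and the genotypes did not pass the edgeR test at this gene (adjusted p = 0.78 in control and 0.133 with TGF-β). All 10 astrocyte markers listed were in the table, led by Gfap. Their summed level was 4619.6 to 4847 CPM in WT control and 3585 to 3705 in WT TGF-β, against 5342 to 6005 in KO control and 4384 to 4716 in KO TGF-β. A list of 10 meningeal fibroblast markers, all in the table and led by collagens, summed to 5237 to 6554 CPM in WT control and to 9989 to 11413 in WT TGF-β, against 4388 to 4565 and 7780.4 to 7789.7 in the same conditions in KO. Markers of microglia or macrophages (9 of 9 in the table) summed to 1004 to 1326 CPM over all 8 libraries.

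Because Fzd1, Fzd2 and Fzd7 belong to 1 subfamily of close paralogs, their sequences bear on how well their reads can be assigned. The last 75 coding bases before the stop codon are shown 5′ to 3′ for each, read from GENCODE M21 transcripts on GRCm38, with capitals where all 3 genes hold the same base, which was the case at 46 of 75 positions. The coding part of Fzd1 lies on the minus strand at chr5:4755655-4757580, that of Fzd2 on the plus strand at chr11:102604732-102606441, and that of Fzd7 on the plus strand at chr1:59482960-59484675.
Fzd1: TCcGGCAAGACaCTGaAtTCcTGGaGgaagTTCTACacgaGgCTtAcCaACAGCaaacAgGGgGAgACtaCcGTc
Fzd2: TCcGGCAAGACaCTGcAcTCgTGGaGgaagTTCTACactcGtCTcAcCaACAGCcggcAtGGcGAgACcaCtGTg
Fzd7: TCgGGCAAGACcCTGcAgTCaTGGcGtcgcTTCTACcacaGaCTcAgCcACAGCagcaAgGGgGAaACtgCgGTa
Fzd1 and Fzd2 matched at 60 of these 75 bases, Fzd1 and Fzd7 at 51, and Fzd2 and Fzd7 at 49. Over whole transcripts, the share of 25-base stretches that occurred in either of the other 2 genes was 3.14% for Fzd1, 3.85% for Fzd2 and 1.55% for Fzd7, and no stretch of 50 or 75 bases was shared. The coding part of each of these genes is 1 exon, and the stretches shown lie in it.

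The remaining genes lie, on the same build, at chr6:134446476-134566965 (Lrp6, minus strand), chr8:23411502-23449632 (Sfrp1, plus), chr7:112116017-112159057 (Dkk3, minus), chr11:120653788-120661175 (Notum, minus), chr11:108920349-108950783 (Axin2, plus), chr3:131110471-131224356 (Lef1, plus) and chr19:55741820-55933654 (Tcf7l2, plus). The libraries were unstranded. Exons of Axin2 overlapped an antisense gene by 105 bases, those of Lef1 by 1208 bases, and those of Notum overlapped antisense genes by up to 612 bases, so that reads of each gene and its antisense partner cannot be told apart there.

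RefSeq windows of 300 bases around a gene start (GRCm38.p6, 250 before and 50 after) were at hand for 5 of the 10 genes. They were searched on both strands for 4 words bound by TCF/LEF proteins, namely the word CTTTGAA, the word CTTTGAT, the word CTTTGTA and the word CTTTGTT, which cannot overlap each other on the same strand. A word was found in 3 of 9 windows of these genes and in 16.9% of all 32851 windows. The 3 matches are shown because 2 of them lie at starts of the TCF/LEF genes themselves, with the word in capitals on the strand of the gene: Fzd7 at chr1:59482002-59482038, an internal start of Lef1 at chr3:131156132-131156168, and a downstream start of Tcf7l2 at chr19:55895292-55895328.
Fzd7: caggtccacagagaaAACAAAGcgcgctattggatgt
Lef1, internal start: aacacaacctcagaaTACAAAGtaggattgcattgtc
Tcf7l2, downstream start: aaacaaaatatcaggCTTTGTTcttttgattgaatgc
The windows at the first start of Lef1 and at the Axin2 start at chr11:108920349 held none of the 4 words. The RefSeq span of Axin2 begins further upstream, at chr11:108917828, where no window was at hand. The 120 bases before the searched starts are given because Lef1 rose with TGF-β and Axin2 did not pass the test. A link between sequence and response was not tested. They lie at chr3:131110177-131110296 for Lef1 and chr11:108920229-108920348 for Axin2, both on the plus strand.
Lef1: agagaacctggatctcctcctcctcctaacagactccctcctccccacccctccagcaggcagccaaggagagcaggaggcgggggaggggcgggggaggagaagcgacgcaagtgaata
Axin2: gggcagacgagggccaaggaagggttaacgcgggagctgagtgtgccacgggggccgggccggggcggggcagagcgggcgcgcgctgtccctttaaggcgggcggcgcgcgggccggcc

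In WT astrocytes, TGF-β stimulation raised Lef1 and Dkk3 and lowered Notum, while the 3 Frizzled genes, Lrp6, Sfrp1, Axin2 and Tcf7l2 did not pass the threshold. In KO astrocytes Lef1 and Dkk3 rose as well. The threshold asked for a log2 fold change of 0.6 or more in size and for an adjusted p under 0.05 in edgeR's quasi-likelihood test. In WT, 2 of the 10 genes were higher by that rule, where 7.72% of all 13509 genes tested were, and 1 was lower, where 5.65% were. In KO, 2 of 10 were higher against 6.61% of all genes, and none was lower against 4.93%. With the adjusted p alone and no limit on size, 5 of 10 passed in WT against 32.9% of all genes, and 3 of 10 in KO against 28.4%. The control and TGF-β libraries did not overlap for 6 of 10 genes in WT, against 69.1% of all genes, and for 6 of 10 in KO, against 67.3%. The median log2 fold change of the 10 genes was 0.07 in WT and 0.09 in KO, beside 0.0 for all genes in both.

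**Figure D1:**
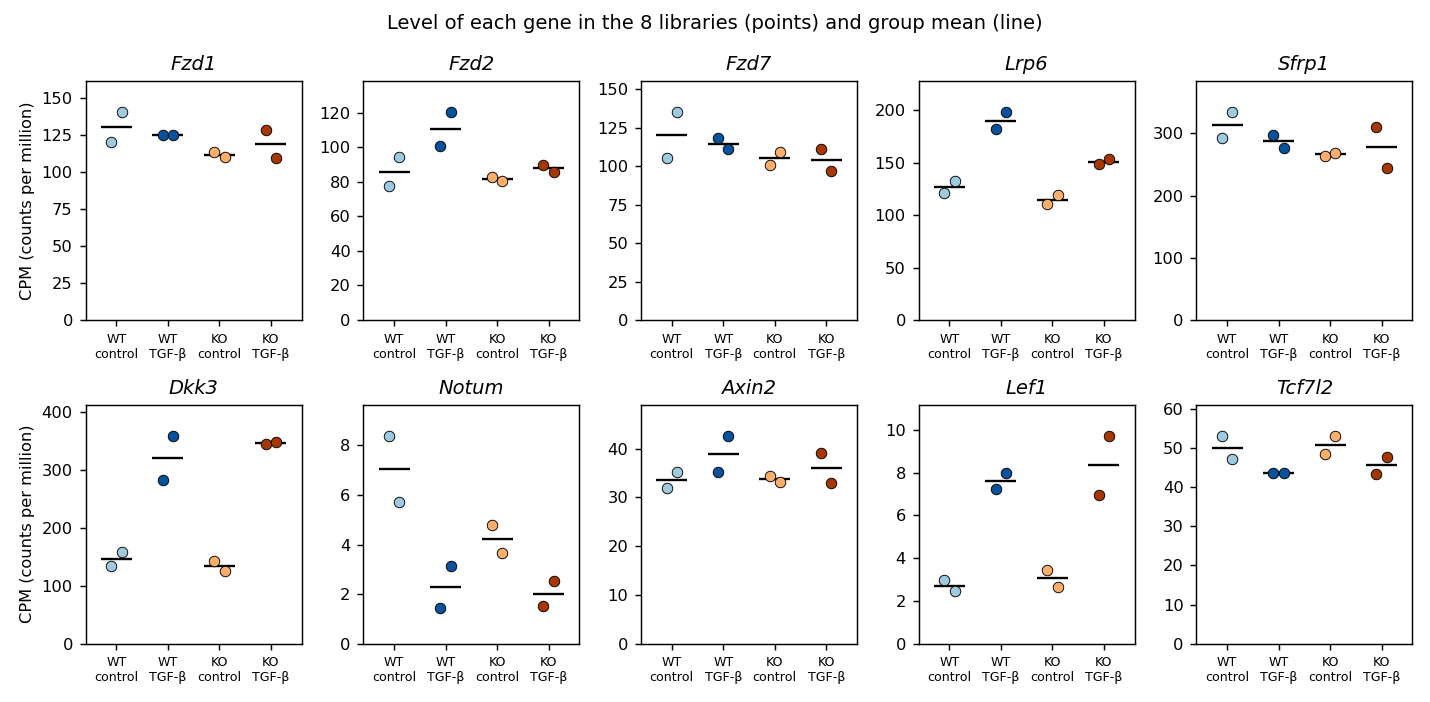
Level of each of the 10 genes in CPM (y axes, each from 0) in the 4 groups (x axes), with 1 point per library and a line at the mean of the 2 libraries. Dkk3 and Lef1 stand higher in all 4 TGF-β libraries than in all 4 control libraries, Notum stands lower, and Axin2 spans only 32 to 42.6 CPM over the 8 libraries.

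Fzd1, a seven-pass receptor for Wnt proteins, was counted at 120.1 and 140.1 CPM in WT control and 125 and 125 in WT TGF-β, and at 113 and 109.6 in KO control and 128 and 109 in KO TGF-β. The control and TGF-β libraries overlapped in both genotypes. Its log2 fold change with TGF-β was -0.06 ± 0.09 in WT (SE, 2 libraries a group; 95% interval -0.28 to 0.16) and 0.09 ± 0.09 in KO (-0.13 to 0.30). Both intervals lay within the limit of 0.6.

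Fzd7, which is known for Wnt reception in progenitor cells, was at 105 and 135 CPM in WT control and 118 and 111 in WT TGF-β. In KO it was at 101 and 109 in control and 111 and 97.0 with TGF-β. Both pairs of groups overlapped, and in WT the log2 fold change was -0.07 ± 0.12 (SE, 95% interval -0.34 to 0.21). In KO the value was -0.01 ± 0.12 (-0.29 to 0.27).

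Fzd2 is a receptor tied to both canonical and non-canonical Wnt signals. In CPM it was the only Frizzled of the 3 whose TGF-β libraries all lay above the controls of their genotype. Groups did not overlap, in either direction, for 69.1% of all genes in WT and 67.3% in KO. Fzd2 stood at 77.4 and 94.5 CPM in WT control against 101 and 120.3 in WT TGF-β, and at 82.9 and 80.5 in KO control against 90.0 and 85.9 in KO TGF-β. The gap was wider in WT, where the log2 fold change was 0.36 ± 0.11 (SE) with an edgeR adjusted p of 0.0394, under the limit on size. That adjusted p rested on single libraries and on the scaling: without WT control replicate 1 the value was 0.22 (adjusted p = 0.178), without WT TGF-β replicate 2 it was 0.21 (adjusted p = 0.253), and without any 1 KO library the adjusted p was 0.0575 to 0.066. It was also above 0.05 with upper quartile scaling (0.27, adjusted p = 0.0923), when the 4 WT libraries were fitted alone (0.34, adjusted p = 0.106) and in limma on log2(FPKM + 1) (0.15, adjusted p = 0.283). In KO it was 0.11 ± 0.11, with an adjusted p of 0.509. The difference between these responses did not pass the test (0.25, 95% interval -0.11 to 0.62, unadjusted p = 0.145, adjusted p = 1.0 over all genes). Of the FPKM of Fzd1, Fzd2 and Fzd7 summed, Fzd2 made up 31.1% and 32.4% in WT control and 35.2% and 37.4% in WT with TGF-β. In KO it made up 33.3% and 32.5% in control and 33.4% and 35.3% with TGF-β. FPKM is the authors' count of fragments per length of transcript and per library size. On this scale the control and TGF-β libraries of Fzd2 overlapped in both genotypes. WT was at 21.3 and 26.6 FPKM in control and 25.8 and 27.3 with TGF-β. KO was at 22.2 and 22.6 in control and 23.0 and 22.2 with TGF-β.

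Lrp6, the co-receptor whose phosphorylated tail recruits Axin, was higher with TGF-β in both genotypes by less than the limit on size. WT control libraries were at 121 and 132 CPM and WT TGF-β libraries at 182 and 198, and KO libraries went from 110.1 and 119 in control to 149 and 153 with TGF-β. All 4 TGF-β libraries lay above all 4 control libraries. The log2 fold change in WT was 0.59 ± 0.07 (SE, 95% interval 0.42 to 0.75), 1.5-fold, with an adjusted p of 0.000958 in edgeR, so Lrp6 fell just short of the limit of 0.6. Its value was above 0.6 without WT control replicate 2 (0.63) or without WT TGF-β replicate 1 (0.65). In the other 17 of 19 alternatives it was below 0.6. Among these it was 0.53 without WT control replicate 1 and 0.51 without WT TGF-β replicate 2. It was 0.50 with upper quartile scaling and 0.40 in limma on log2(FPKM + 1), the lowest value. In KO the value was 0.40 ± 0.07, 1.32-fold, with an adjusted p of 0.00567, which was 0.058 without KO TGF-β replicate 2 (0.36).

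Dkk3, a secreted glycoprotein of the Dickkopf family whose effect on Wnt signalling varies between cell types, rose in both genotypes. It was at 134 and 158 CPM in WT control and 282 and 359 in WT TGF-β. The KO libraries were at 143 and 126 in control and at 345 and 349 with TGF-β. The lowest TGF-β library, at 282, lay above the highest control library, at 158. The log2 fold change was 1.13 ± 0.13 (SE) in WT, 2.19-fold (edgeR adjusted p = 0.000702), and 1.37 ± 0.13 in KO, 2.58-fold (adjusted p = 0.000428). The interaction was -0.24 (95% interval -0.65 to 0.18, adjusted p = 1.0).

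Sfrp1, a secreted Frizzled-related protein that binds Wnt proteins outside the cell, did not pass the test. WT control libraries were at 293 and 334 CPM and WT TGF-β libraries at 298 and 276, while KO control stood at 264 and 269 and KO TGF-β at 311 and 244. The KO TGF-β libraries lay on either side of the controls. The log2 fold change was -0.13 (95% interval -0.40 to 0.14) in WT and 0.06 (-0.21 to 0.33) in KO.

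Notum, an enzyme that takes the lipid off Wnt proteins and so inactivates them, fell in WT astrocytes from a low level. It was at 8.38 and 5.73 CPM in WT control, from 130 and 96 counts, and at 1.44 and 3.13 CPM in WT TGF-β, from 26 and 49 counts. In KO it was at 4.78 and 3.67 CPM in control and 1.54 and 2.51 with TGF-β, from 75, 62, 23 and 38 counts. The TGF-β libraries lay below the control libraries in both genotypes. The log2 fold change was -1.64 ± 0.37 (SE, 95% interval -2.50 to -0.78) in WT, with an edgeR adjusted p of 0.0127. The call was lost without WT control replicate 1 (-1.35, adjusted p = 0.0549) and without WT TGF-β replicate 1 (-1.16, adjusted p = 0.062). In KO the value of -1.05 ± 0.40 did not pass (95% interval -1.99 to -0.12, adjusted p = 0.0874), but it did when only the 4 KO libraries were fitted (-1.06, adjusted p = 0.0455). The responses were not shown to differ between genotypes (interaction -0.59, 95% interval -1.88 to 0.70, unadjusted p = 0.322, adjusted p = 1.0).

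Axin2, the scaffold of the β-catenin destruction complex and a widely used readout of canonical Wnt activity, did not pass the test in either genotype. Its WT libraries were at 32 and 35.2 CPM in control and 35.1 and 42.6 with TGF-β, and its KO libraries at 34.3 and 33.1 in control and 39.0 and 33.0 with TGF-β. The groups overlapped in both genotypes. The log2 fold change was 0.21 in WT (95% interval -0.06 to 0.47, edgeR adjusted p = 0.203) and 0.10 in KO (-0.17 to 0.36, adjusted p = 0.562).

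Lef1, an HMG-box protein that brings β-catenin to DNA, rose in both genotypes from low counts. The libraries held 46 and 41 counts in WT control and 131 and 125 in WT TGF-β, which is 2.97, 2.45, 7.24 and 7.99 CPM. In KO they held 54 and 45 counts in control and 104 and 147 with TGF-β, or 3.45, 2.66, 6.97 and 9.71 CPM. Every TGF-β library was above every control library. Lef1 rose 2.81-fold in WT (log2 1.49 ± 0.22 SE, edgeR adjusted p = 0.00236) and 2.73-fold in KO (log2 1.45 ± 0.22, adjusted p = 0.00301). The interaction was 0.04 with a 95% interval from -0.69 to 0.77.

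Tcf7l2, the other HMG-box factor, did not pass the test in either genotype. It was at 53.1 and 47.1 CPM in WT control and 43.7 and 43.5 in WT TGF-β, and at 48.6 and 53.0 in KO control and 43.4 and 47.7 in KO TGF-β. The TGF-β libraries lay below the controls of their genotype in both cases. In WT the log2 fold change was -0.20 (95% interval -0.39 to -0.01, edgeR adjusted p = 0.103). In KO it was -0.16 (-0.35 to 0.04, adjusted p = 0.193). The adjusted p in WT was under 0.05, below the limit on size, with upper quartile scaling (-0.28, adjusted p = 0.0267) and in limma on log2(FPKM + 1) (-0.31, adjusted p = 0.0267) and on log2(FPKM + 0.1) (-0.34, adjusted p = 0.0226). In KO it was so with the last of these alone (-0.28, adjusted p = 0.0445).

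**Figure D2:**
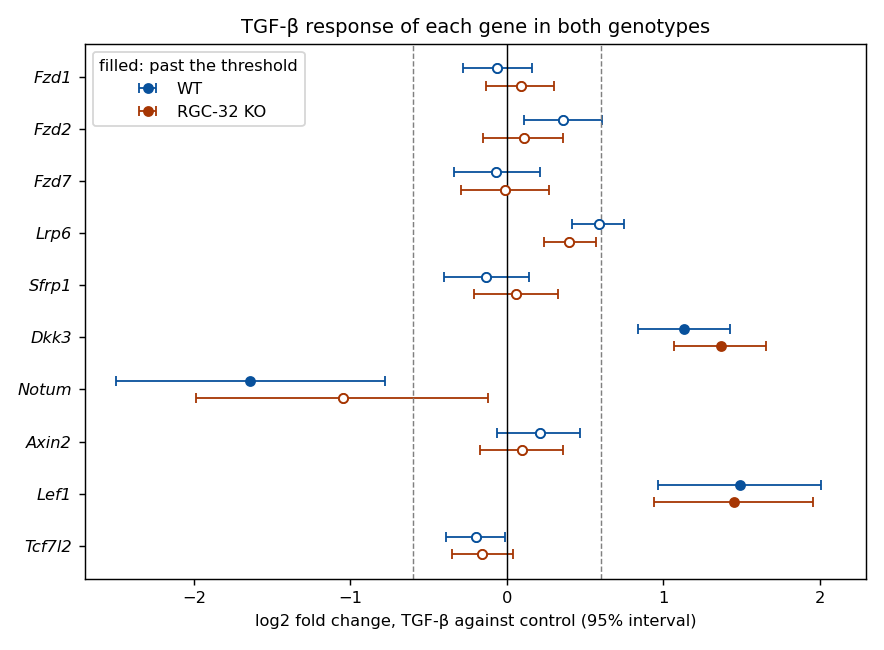
Log2 fold change of TGF-β against control (x axis) for each gene (y axis) in WT and KO astrocytes from edgeR, with 95% intervals, dashed lines at 0.6 in both directions and filled points past the threshold. Lef1 and Dkk3 are filled in both genotypes, Notum in WT only, and the interval of Lrp6 in WT spans the limit (0.42 to 0.75).

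Levels of other cell types' markers moved with TGF-β as well, though within several lists the genes did not all move alike. The summed fibroblast list was higher in all 4 TGF-β libraries, as given above, with Col1a1 at log2 values of 1.31 (WT) and 1.20 (KO), and Dcn of the same list at -0.62 and -0.36. Mural markers, of which 4 of 6 were in the table, summed to 186 to 223 CPM over the control libraries and 452 to 711 over the TGF-β libraries. Of these, Cspg4 rose most (log2 3.13 in WT and 2.69 in KO). Notch3 (1.12 and 1.08) and Pdgfrb (1.02 and 0.89) rose too, and Rgs5 hardly moved (0.17 and 0.03). Endothelial markers (6 of 8 in the table) summed to 291 to 328 CPM in control and 193 to 221 with TGF-β, with Cldn5 and Emcn not in the table. Flt1 of this list rose (log2 1.13 in WT and 0.63 in KO), while Cdh5 (-1.09 and -0.85), Kdr (-0.5 and -0.67) and Slco1a4 (-0.56 and -0.64) fell. Ependymal or choroid plexus markers (6 of 8) summed to 359 to 424 CPM in control and 233 to 286 with TGF-β, and those of the oligodendrocyte lineage (7 of 9) to 97.8 to 119.6 and 59.3 to 78.1. Neuronal markers (5 of 8) ran from 280.2 to 338 CPM in control and from 355 to 397 with TGF-β. The part of these cells in the changes of Lef1, Dkk3 and Notum was not tested.

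The second question of the design is whether RGC-32 changes these levels, at rest or under TGF-β. None of the 10 genes passed the threshold between WT and KO in edgeR, in control (0.037% of all genes did) or with TGF-β (0.0444%). The count was also 0 in DESeq2, where 13 of 13937 genes passed in control and 34 with TGF-β. In limma-voom it was 0 as well, where 4 of 13509 genes passed in control and 3 with TGF-β. At an unadjusted p under 0.05 edgeR named 1 of the 10 in control, against 6.84% of all genes, and 2 with TGF-β, against 11.7%. The 1 in control was Fzd1, at 120.1 and 140.1 CPM in WT against 113 and 109.6 in KO (log2 0.22, 95% interval 0.00 to 0.44, unadjusted p = 0.0466, adjusted p = 0.725). With TGF-β, Lrp6 was at 182 and 198 CPM in WT against 149 and 153 in KO (log2 0.33, 95% interval 0.17 to 0.49, unadjusted p = 0.00168, adjusted p = 0.172), with alternatives giving an adjusted p between 0.0785 and 0.792. The other was Fzd2, at 101 and 120.3 CPM against 90.0 and 85.9 (log2 0.33, 95% interval 0.07 to 0.58, unadjusted p = 0.0182, adjusted p = 0.32). These were the 2 of 10 genes whose WT and KO libraries did not overlap with TGF-β, against 46.3% of all genes.

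The widest gap between genotypes at rest was that of Notum, at 8.38 and 5.73 CPM in WT control against 4.78 and 3.67 in KO control. The libraries did not overlap, as was so for 4 of the 10 genes in control and for 32.8% of all genes, and at these counts the log2 difference of 0.74 had a 95% interval from -0.06 to 1.53 (edgeR adjusted p = 0.725). Leaving out 1 library gave values from 0.44, without WT control replicate 1, to 0.99, without WT control replicate 2. For Axin2 the genotypes differed by 0.00 in control (95% interval -0.27 to 0.26) and 0.11 with TGF-β (-0.16 to 0.37), positive values being higher in WT. For Lef1 the values were -0.17 (-0.75 to 0.41) and -0.13 (-0.59 to 0.32), and for Dkk3 0.12 (-0.17 to 0.41) and -0.12 (-0.40 to 0.17). The summed fibroblast markers were higher and the summed astrocyte markers lower in WT than in KO under both conditions, and their part in these values was not tested.

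No member passed the interaction test of genotype and TGF-β, and 0% of all genes did, with every adjusted p of the 10 genes at 1.0 in edgeR. The unadjusted p was under 0.05 for 381 genes in edgeR (2.82% of all), 76 in DESeq2 and 368 in limma-voom, with no gene of any tool past an adjusted p of 0.05, and no member was among those of edgeR. The narrowest intervals of the interaction were those of Lrp6 (0.19, -0.05 to 0.42) and Tcf7l2 (-0.04, -0.31 to 0.23), and the widest was that of Notum.

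**Figure D3:**
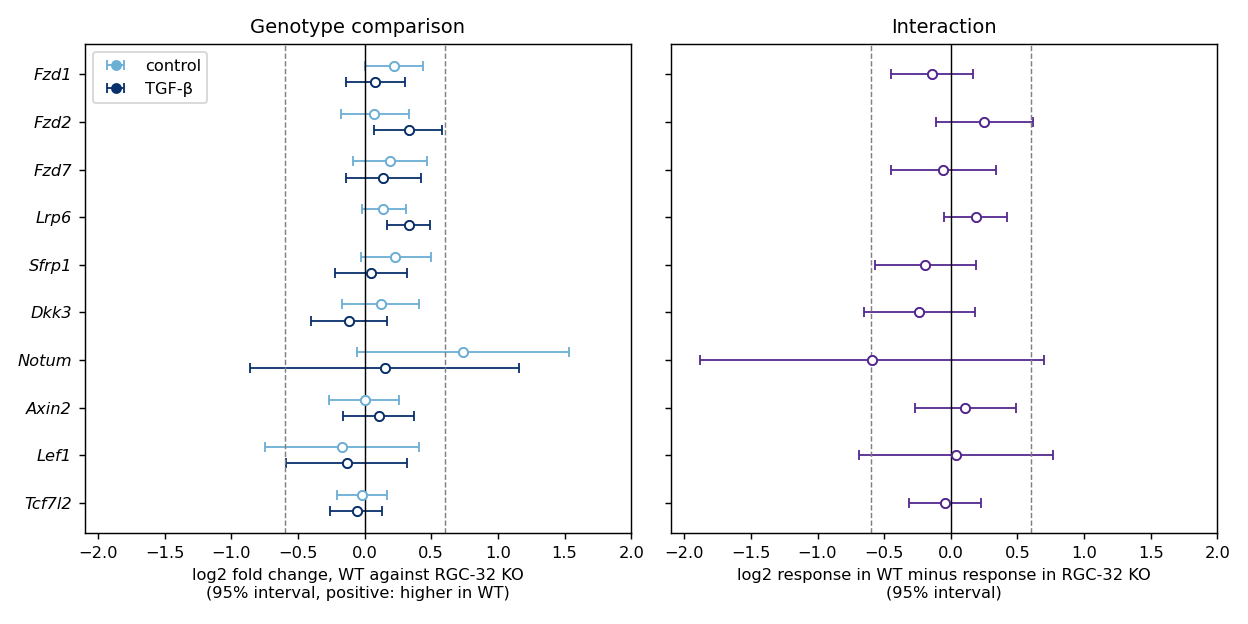
Left, log2 fold change of WT against KO in control and with TGF-β (x axis, positive is higher in WT) for each gene (y axis). Right, the interaction, the log2 response to TGF-β in WT minus that in KO. Points are edgeR estimates, bars 95% intervals and dashed lines 0.6 in both directions. No point is filled because none passed the threshold, and Notum has the widest bars (-1.88 to 0.70 in the interaction).

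Levels were compared between genes on the authors' FPKM scale, which divides by transcript length. In WT control Sfrp1 came first, at 67.1 ± 4.64 FPKM, and Dkk3 next, at 39.8 ± 5.74 (SD, n = 2). Fzd1 at 28.3 ± 2.06, Fzd2 at 23.9 ± 3.78 and Fzd7 at 22.9 ± 3.83 followed. Lrp6 was at 11.5 ± 0.533, Tcf7l2 at 10.6 ± 0.822, Axin2 at 6.74 ± 0.634, Notum at 2.08 ± 0.516 and Lef1 at 0.684 ± 0.0998. The libraries of neighbours in this order overlapped for Fzd2 and Fzd7 and for Lrp6 and Tcf7l2, and the other neighbours were apart in both libraries.

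With TGF-β, Dkk3 passed Sfrp1 and Lef1 passed Notum in both genotypes. Dkk3 came first, at 77.7 ± 7.10 FPKM in WT TGF-β and 86.5 ± 4.26 in KO TGF-β, ahead of Sfrp1 at 55.4 ± 1.79 and 55.7 ± 10.1 (SD, n = 2). At the other end Lef1, at 1.83 ± 0.0757 and 1.89 ± 0.0850 FPKM, stood above Notum at 0.627 ± 0.271 and 0.572 ± 0.288, where in control Notum had stood above Lef1 in both genotypes. The FPKM of Tcf7l2 was 13.5 to 16.3 times that of Lef1 in the 4 control libraries and 4.43 to 4.83 times in the 4 TGF-β libraries. Tcf7l2 thus remained the more abundant of the pair per length in every library. In the middle of the order, Fzd2 at 26.6 ± 1.13 FPKM came before Fzd1 at 25.7 ± 0.252 in WT TGF-β, with libraries that overlapped. In KO, Lrp6 came before Tcf7l2 with TGF-β, at 13.0 ± 0.0754 against 8.88 ± 0.738 FPKM and apart in both libraries, where in control Tcf7l2 at 10.8 ± 0.682 and Lrp6 at 10.6 ± 0.779 had overlapped.

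**Figure D4:**
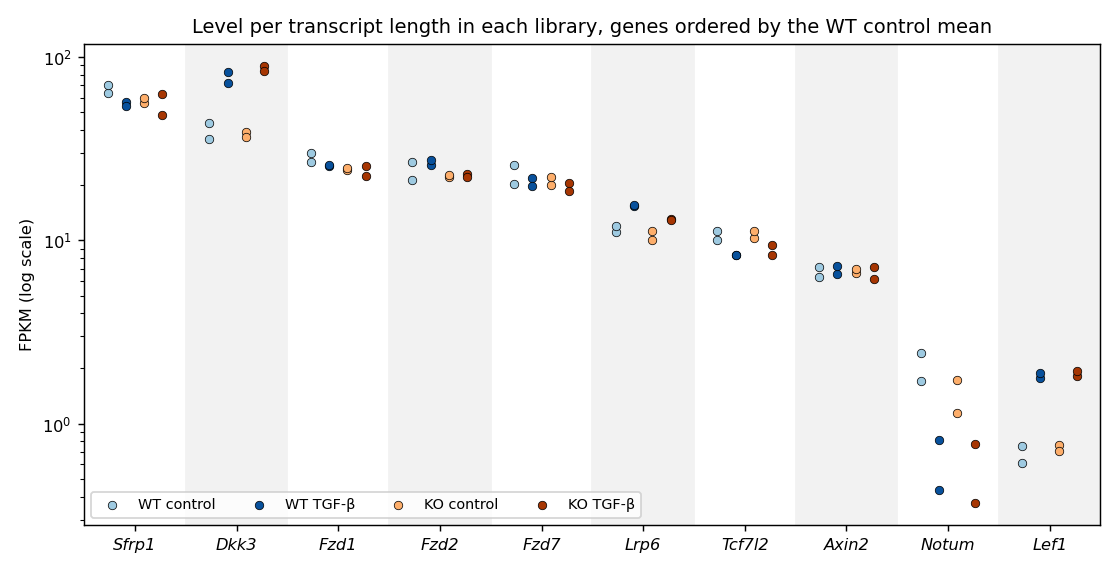
FPKM of the 10 genes (y axis, log scale) in each of the 8 libraries (points, coloured by group), with the genes on the x axis in the order of their WT control mean. Dkk3 passes Sfrp1 and Lef1 passes Notum in the TGF-β libraries of both genotypes.

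The genes whose pattern over the 8 libraries was most like that of a member were named for Axin2 and for Notum, the member with the largest log2 fold change in WT. For Axin2 they were Smim10l1, Casp14 and Ppm1a, with Pearson's r of log2 CPM at 0.985, 0.962 and 0.959. For Notum they were Itga8, 1700003M07Rik and Slc7a11, at 0.979, 0.978 and 0.958. These are the highest of all genes tested over the same 8 libraries, 4 of them control and 4 TGF-β, and are given as a description. The mean of Slc7a11, a cystine transporter, went from 158 CPM in control to 58.8 with TGF-β (WT) and from 125 to 55.3 (KO), and that of Itga8, an integrin subunit, was 22.4, 12.6, 19 and 11.8. Casp14 had means of only 0.307 to 0.609 CPM.

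The rest of the pathway was read from 7 lists with 105 genes, of which 91 were in the table and 90 were tested. In WT, 14 of the 90 rose and 13 fell past the threshold, with a median log2 fold change of 0.09, and in KO 13 rose and 10 fell, with a median of 0.07. Among all genes the shares were those given above.

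Other receptors and co-receptors (15 of 15 tested) had 3 genes that rose in WT and 3 in KO, with none lower and medians of 0.15 and 0.08. Fzd6, a Frizzled mostly known from planar polarity, went from 48.3 to 115 CPM in WT (group means, log2 1.25 ± 0.12 SE, edgeR adjusted p = 0.00034) and from 46.1 to 113 in KO (log2 1.29). Ror2, a receptor for Wnt5a, had log2 fold changes of 0.77 and 0.91. Lgr6, a receptor for R-spondins, had values of 1.85 and 2.29 from means of 1.25 and 0.713 CPM in control.

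Among other secreted antagonists and agonists, 11 of 18 were tested, and 1 rose and 5 fell in WT against 1 and 4 in KO (medians -0.02 and 0.14). Those that fell most in WT were Rspo2, an R-spondin that strengthens Wnt signals (log2 -1.88 in WT and -1.86 in KO), Sfrp4 (-1.28 and -1.54) and Sostdc1, an antagonist that binds LRP co-receptors (-1.15 and -0.76). The other two that fell in WT were Frzb (-1.09) and Wif1 (-0.97), antagonists that bind Wnt proteins, named after their values were seen. Dkk2, of the same family as Dkk3, rose from 10.7 to 24.3 CPM in WT (log2 1.18, adjusted p = 0.00414) and from 7.81 to 19 in KO (1.28). The list thus held antagonists that fell as well as one that rose, and an agonist that fell.

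Dishevelled and the destruction complex (17 of 17 tested) had no gene past the threshold in either genotype, and medians of 0.09 and 0.03. At an adjusted p under 0.05 with no limit on size, 5 of the 17 passed in WT, where 32.9% of all genes did. In KO 2 of the 17 passed, where 28.4% did. Those in WT were Dvl1, Dvl3, Gsk3b, Tnks and Tnks2 with log2 values of 0.24 to 0.54. Those in KO were Dvl1 and Tnks2, and all were named after their values were seen. Other nuclear partners of β-catenin (15 of 15 tested) had 1 lower gene in each genotype, Tle2, a Groucho co-repressor (log2 -0.76 in WT and -0.70 in KO), and medians of -0.06 and -0.02.

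Other feedback and target genes (14 of 17 tested) had 3 higher and 4 lower in WT, and 3 higher and 2 lower in KO, with medians of -0.25 and 0.10. The genes that rose were Ccn4, a secreted matricellular protein listed under its older name WISP1 (log2 3.07 in WT and 2.94 in KO), Fgf9, a growth factor (1.46 and 1.63), and Nkd2, which binds Dishevelled (1.01 and 1.36). Ccn4 was at 34.1 and 78.1 CPM in WT control and 469.9 and 473 in WT TGF-β, and at 29.7, 62.7, 346 and 365 in the same order in KO. Those that fell in WT included Rnf43, a ubiquitin ligase that removes Frizzled receptors (log2 -1.12, adjusted p = 0.0125), Nkd1 (-0.81, adjusted p = 0.0046) and Ccnd1, cyclin D1 (-0.81, adjusted p = 0.000702). The other was Zfp703 (-0.77), named after its value was seen. In KO Ccnd1 (-0.74, adjusted p = 0.00123) and Zfp703 (-0.79, adjusted p = 0.000668) fell too, while Rnf43 (-0.43, adjusted p = 0.262) and Nkd1 (-0.41, adjusted p = 0.0763) did not pass. Rnf43 was low, with 38 and 35 counts in WT control and 21 and 14 in WT TGF-β. In KO it had 25 and 32 counts in control and 20 and 19 with TGF-β. No gene passed the interaction test, so these responses were not shown to differ between genotypes.

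Of 4 genes of Wnt secretion none passed in WT and 1 did in KO, Porcn, the acyltransferase that puts the lipid on Wnt proteins (log2 0.52 in WT and 0.69 in KO, named after its values were seen), with medians of 0.35 and 0.36. Of the Wnt ligands, 14 of 19 were tested, and 7 rose and 3 fell in WT against 5 and 3 in KO, with medians of 0.48 and 0.44. Wnt11 and Wnt2 rose (log2 2.64 and 2.10 in WT), and Wnt6, Wnt4 and Wnt7a fell (-2.11, -1.57 and -1.14). Their means in WT control were low, at 1.77, 3.92, 6.11, 4.6 and 10.1 CPM in that order. Wnt1 had 1 and 2 counts in WT control and 38 and 32 in WT TGF-β, and 1 and 2 counts in KO control and 30 and 41 in KO TGF-β. Against 3 counts per control library, the log2 fold change of Wnt1 was at least 3.48 in WT and 3.68 in KO. Wnt1 lay above the ligand medians of 0.48 and 0.44 either way, so this bound could not move them.

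**Figure D5:**
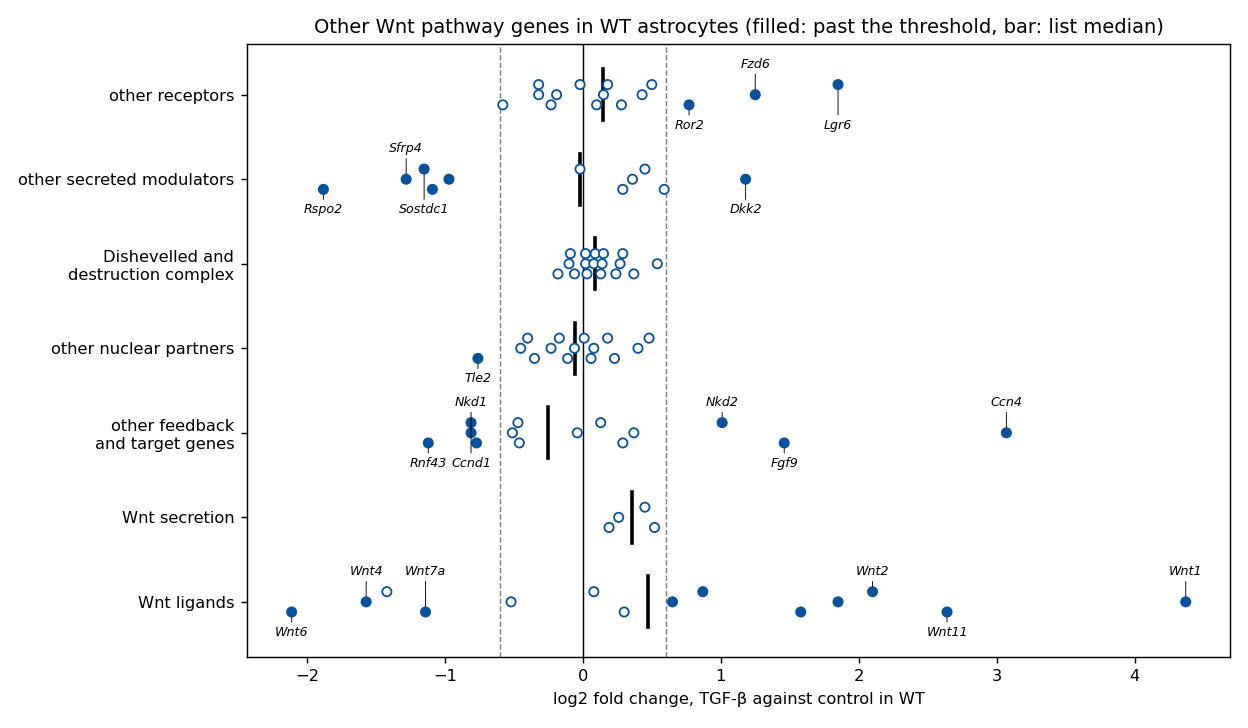
Log2 fold change of TGF-β against control in WT (x axis) for the 90 tested genes of the 7 other pathway lists (y axis), with 1 point per gene, filled past the threshold, a bar at each list's median and dashed lines at 0.6 in both directions. Points are spread vertically only to separate them, and the position of Wnt1 rests on 1 and 2 counts in control. The destruction complex has no filled point, while the secreted modulators, targets and ligands have filled points on both sides.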

How the data were processed

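The data were RNA-seq libraries of primary mouse astrocytes in 4 groups of 2. The authors aligned unstranded reads with STAR and deposited raw read counts, as whole numbers, for 13937 genes named by symbol. The program that counted the reads and the filter behind that table are not given in the sources used here, and the submitters' processing notes name mm10. The authors also deposited FPKM values from Cufflinks for 18644 genes, used here for levels between genes and for an alternative. Further deposited files hold the authors' own log2 fold changes and p-values for TGF-β against control, which were not used. In the count table, 21 symbols had turned into dates and 1 was repeated.

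The tests were run with edgeR 4.0.16 under R 4.3.3 (filterByExpr, TMM, quasi-likelihood test), with 1 mean per group over all 8 libraries and no block. P-values are two-sided and were adjusted by Benjamini-Hochberg over the 13509 genes tested. The threshold was 0.6 in size on the log2 scale together with an adjusted p under 0.05. Log2 CPM used a prior count of 2, and SE was derived from the test statistic. Total counts ran from 14920561 to 18956038, so genes such as Lef1 and Notum, with their low counts, were measured least precisely. Replicates differed by more than counting noise (chi-square per degree of freedom 6.37 to 10.5). On data simulated from these libraries, the WT comparison recovered 86 of 100 genes changed by log2 1.0 and 87 of 100 changed by 0.8, with 6 false calls among 13436 genes. The changed genes were picked at random from those with a mean above 1 CPM, and each library was drawn independently. Nothing else was changed there, whereas 4450 of 13509 genes had an edgeR adjusted p under 0.05 in the WT data. These figures therefore do not give the recovery or false calls of the reported WT test. Nor do they give the recovery of a single low-count gene such as Lef1 or Notum.

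All 10 members are named. Of each pathway list, up to 3 genes that rose and 3 that fell past the threshold in WT, those that changed most, are named, and, for Axin2 and the member with the largest change, the 3 genes with the most similar pattern. The members, lists and rules were chosen with earlier results of these data known. Alternatives were DESeq2 1.42.0, limma-voom (limma 3.58.1), edgeR on 4 libraries, other filters and scalings, no fold limit, limma on log2(FPKM + 1) and log2(FPKM + 0.1), a replicate block, and leaving out each library.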

Additional observations from a re-analysis of the deposited data

How the results depend on the processing

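In WT, Dkk3, Lef1 and Notum were the genes past the threshold under DESeq2, limma-voom, edgeR on 4 libraries, both other filters, RLE and upper quartile scaling and both FPKM pseudocounts. Without the fold limit the count in WT moved from 3 to 5, adding Fzd2 and Lrp6. Leaving out 1 library gave counts of 2 to 4 in WT and 2 to 2 in KO, and 0 to 0 in the genotype comparisons and the interaction. Upper quartile scaling moved the share of higher genes among all calls to 44.8% from 57.8% in WT, and to 45.5% from 57.3% in KO. Values near 0 changed sign without passing a test: in KO, Fzd1 to -0.04 and -0.05, Sfrp1 to -0.07 and -0.07, and Axin2 to -0.04 and -0.04 with the FPKM pseudocounts 1 and 0.1, and Sfrp1 to -0.02 with upper quartile scaling. With 1 library left out, log2 values that crossed 0 ran, for TGF-β in WT, from -0.16 to 0.04 (Fzd1) and -0.24 to 0.11 (Fzd7), and in KO from -0.03 to 0.17 (Fzd1), -0.11 to 0.06 (Fzd7), -0.13 to 0.2 (Sfrp1) and -0.03 to 0.19 (Axin2). For WT against KO they ran in control from -0.08 to 0.21 (Fzd2), 0.0 to 0.36 (Fzd7), -0.07 to 0.06 (Axin2), -0.35 to 0.02 (Lef1) and -0.11 to 0.07 (Tcf7l2), and with TGF-β from -0.02 to 0.19 (Fzd1), -0.11 to 0.22 (Sfrp1), -0.31 to 0.06 (Dkk3), -0.05 to 0.25 (Axin2), -0.36 to 0.14 (Lef1), -0.14 to 0.02 (Tcf7l2) and -0.51 to 0.64 (Notum). In the interaction they ran from -0.23 to 0.14 (Fzd7), -0.04 to 0.26 (Axin2), -0.18 to 0.32 (Lef1) and -0.12 to 0.05 (Tcf7l2). None of these values passed a test, and the cause of the sign changes was not tested.

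The replicate numbers were not shown to pair the libraries. Deviations of same-numbered libraries correlated at -0.343 between control and TGF-β in WT and -0.348 in KO. Across both genotype and treatment the values were -0.507 (WT TGF-β with KO control) and -0.483 (WT control with KO TGF-β). Between the genotypes they were 0.491 in control and 0.253 with TGF-β. Each value rests on a single contrast per group, because the 2 libraries of a group deviate from their mean by mirror amounts. With the replicate number as a block, the counts were 3 in WT, 2 in KO and 0 in the other comparisons. With the numbers crossed between treatments, an alternative chosen after seeing the data, they were 3, 3 (adding Notum) and 0. Over all genes, WT and KO then differed past the threshold at 10 genes in control and 36 with TGF-β, against 5 and 6 without a block and 2 and 3 with the numbers as labelled. Lef1 and Notum, with the lowest counts, had the widest intervals.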
